A study of Mus musculus with 6 samples.

Results

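The genes described here are 10 genes of the p53 pathway and of cell-cycle arrest: Trp53, Mdm2, Cdkn1a, Cdkn1b, Cdkn2a, Cdkn2b, Ccng1, Gadd45a, Bax and Sesn2. They were examined in ATAC-seq peak lists, which record where the Tn5 transposase reached open chromatin. A window was drawn over each gene body plus 10 kb on both sides (GRCm38, GENCODE M21), and 34 of the 66679 merged regions of the series fell in these windows. The cells were primary muscle cells of the mouse oviduct at day 2 of pregnancy, in 3 control libraries (WT) and 3 Pbrm1 cKO libraries. Per the study's methods, the cKO mice carried Pbrm1 fl/fl with a Cre expressed from the progesterone receptor gene (PR-IRES-cre), the controls were Pbrm1 fl/fl littermates. The sample labels give an age of 8 to 12 weeks and mating with stud males. Deletion is thus confined by that Cre to cells that have expressed the receptor, cells were plated for some hours before the assay, and how many animals went into a library is not stated in the sources used here. The study calls the 3 libraries of a genotype biological replicates without saying whether each came from its own animals or culture, so the p-values measure the spread between these libraries. Peak lists do not show the deletion and so do not check the genotype labels.

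The protein p53 is a transcription factor that is kept at a low level by the ubiquitin ligase Mdm2 and is stabilised when DNA is damaged. It binds a response element made of a pair of decamers and raises transcription of genes that halt the cycle, repair DNA or trigger apoptosis. The CDK inhibitors act downstream of it or beside it. Of these, p21 (Cdkn1a) is a direct target, and p27 (Cdkn1b), p16 (Cdkn2a) and p15 (Cdkn2b) restrain cyclin-dependent kinases by other routes. The other product of Cdkn2a, p19Arf, blocks Mdm2. Pbrm1 encodes a bromodomain protein of PBAF, a form of the nucleosome-remodelling SWI/SNF complexes, and the comparison asks whether accessibility at these genes changed without it.

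All 10 genes had an open promoter region in every library, and 34 of 34 regions had an entry in all 6 libraries, against 93.5% of all merged regions. In limma, 0 of the 34 regions passed an adjusted p of 0.05 in either direction. At that threshold 0.0390% of all regions stood higher in Pbrm1 cKO libraries and 0.0285% stood lower, so a count of 0 in 34 is near that background. With normal scores of the ranks the count was also 0. An unadjusted p under 0.05 was found at 4 regions (11.8%), 1 higher and 3 lower, against 15.9% of all regions. The groups did not overlap at 4 regions (11.8%), against 21.5% of all regions. The direction was even, with 17 regions higher and 17 lower. The median difference in rank score was −0.031 over the 34 regions and 0.00055 over all regions.

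The measure behind these counts is the rank of a region among all others in 1 library, taken from the −log10 p of its best entry, where rank 1 is the strongest of the 66679 regions. The rank score is log2 of the number of regions over the rank, so a difference of 1 means that the rank number halved. Ranks hide any shift that moves a whole library. Fewer open cells and less opening per cell cannot be told apart in such bulk libraries. The tags over the listed summits, recovered from the fold and p of each entry, numbered 5 to 164 over the 34 regions. Their median per library was 48.5, 41.5 and 28 in WT libraries 1, 2 and 3 and 56, 52 and 54 in Pbrm1 cKO libraries 1, 2 and 3, lowest in WT library 3. As a check of the cell type, all 5 smooth muscle markers (Acta2, Myh11, Cnn1, Tagln and Des) had a promoter region, at mean ranks of 19388 to 46897, and 0 of 5 epithelial markers had one. Of the immune markers 2 of 4 had one (Cd68 and Csf1r at 22592 and 39080, Ptprc and Adgre1 none), and all 4 endothelial markers did, at 21012 to 47707. The smallest adjusted p of any marker in limma was 0.409, and the part of other cell types in the values below was not tested.

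Of the 34 regions, 22 lay within 1 kb of an annotated start of some gene, 3 in other exons, 2 in introns and 7 between genes. The neighbours Wrap53, Atp1b2, Lockd, Gys1, Ftl1 and Dhdh lie in the windows, so a region in a window is not always a region of the member gene. The regions were a median of 581.5 bp wide with a GC content of 56.2%, against 481 bp and 50.3% over all regions. The promoter regions had a median of mean ranks of 11875, and the 12 others one of 50506.

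**Figure D1:**
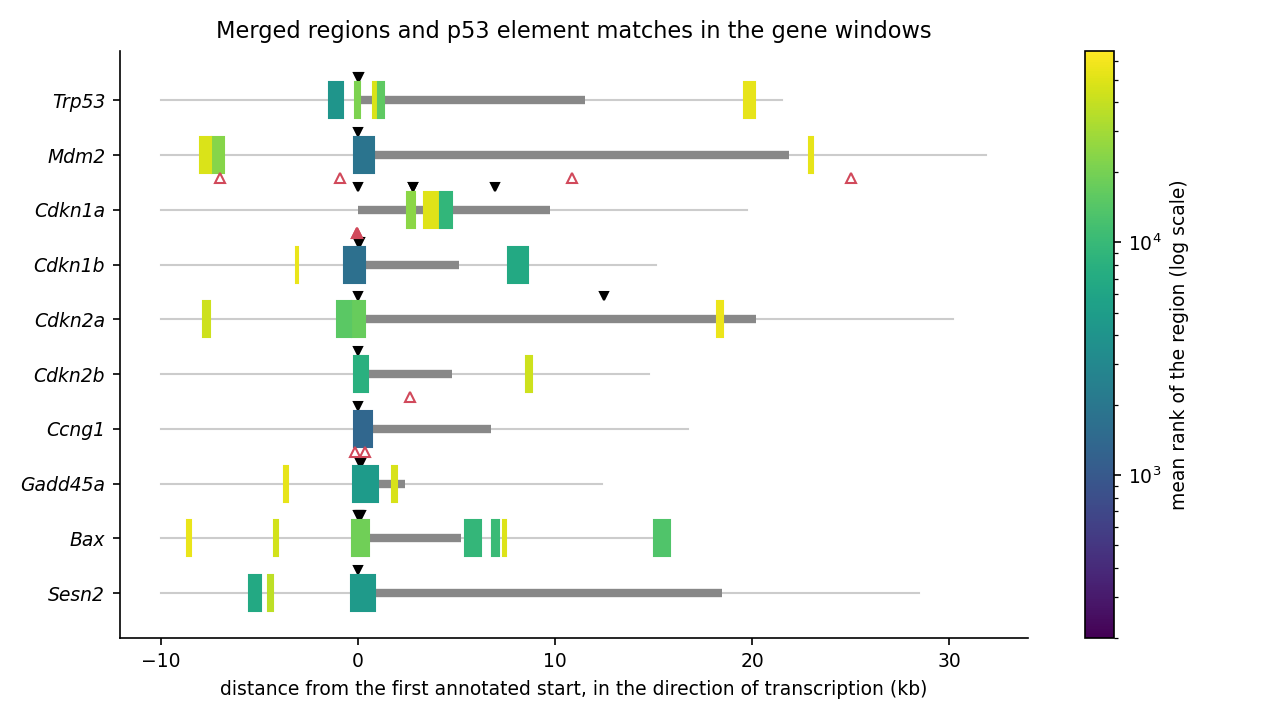
Merged regions (coloured boxes, by mean rank over the 6 libraries on a log colour scale) in the window of each gene, with distance in kb from the first annotated start in the direction of transcription. Grey bars are gene bodies, thin lines the windows, black triangles coding starts, the filled red triangle the exact p53 element and open red triangles elements 1 base off the pattern. All genes but Cdkn1a have a region over their first start, whereas at Cdkn1a and at the Ink4a start of Cdkn2a a start has none.

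Trp53, which encodes p53, had its strongest region not over its own start but at a neighbour. The region at chr11:69578861-69579612 covered the start of Wrap53, an antisense neighbour, and ended 747 bp from the Trp53 start at 69580359. Its ranks were 1752, 2163 and 3982 in WT libraries 1, 2 and 3 and 2792, 6918 and 7243 in Pbrm1 cKO libraries 1, 2 and 3. A Pbrm1 cKO library (2792) stood inside the WT range and the other 2 below it. The mean rank score was 4.75 ± 0.62 in WT and 3.68 ± 0.78 in Pbrm1 cKO (SD, n = 3 each), a difference of −1.07 (SE 0.49, limma unadjusted p = 0.0423, adjusted p = 0.298). This was the most negative difference among the 34 regions, and it stayed negative, between −1.52 and −0.82, when any single library was left out.

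The region over the Trp53 start itself (chr11:69580181-69580456) ranked below the Wrap53 region in 6 of 6 libraries. It had ranks of 30415, 25736 and 12587 in WT and 21623, 15980 and 19836 in Pbrm1 cKO libraries. The WT libraries spanned the Pbrm1 cKO libraries completely, with a difference in rank score of 0.17 (SE 0.36, 95% interval −0.59 to 0.94, limma adjusted p = 0.866). The summit sat 97 to 111 bp upstream of the start in all 6 libraries. Downstream, in the first intron, 2 further regions had ranks from 10645 to 62782. One of them, at 69581127-69581290, was in the WT reproducible list alone, yet with entries in all 6 libraries and a difference of −0.22 (SE 0.21, limma adjusted p = 0.646). A region over an exon of Atp1b2, the neighbour downstream, was in the Pbrm1 cKO list alone, although its difference was −0.23 (SE 0.19, limma adjusted p = 0.603), that is, towards WT.

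Mdm2, the ligase that marks p53 for degradation, had one of the strongest promoters of the group. The region over its start (chr10:117709947-117710980) had ranks of 2980, 784 and 1516 in WT and 1636, 1170 and 3204 in Pbrm1 cKO libraries. Of the 13768 coding genes with a promoter region, 13.4% had a higher one by mean rank score. The groups overlapped, with a difference of −0.26 (SE 0.61, 95% interval −1.54 to 1.01, limma adjusted p = 0.880). It changed sign when WT library 2 was left out (0.22) and when Pbrm1 cKO library 3 was left out (0.14). Its summit lay 70 to 75 bp inside the gene in every library, a spread of 5 bp.

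Upstream of Mdm2, 2 regions lay side by side, 6782 and 7486 bp from the start. The nearer one (chr10:117717540-117718171) had ranks of 20703, 19687 and 21303 in WT and 23916, 20193 and 33672 in Pbrm1 cKO libraries, with a difference of −0.30 (SE 0.32, limma adjusted p = 0.700). It held a p53 element 1 base off the pattern, 6988 bp upstream of the start, and the summits of the 6 libraries lay 7016 to 7079 bp upstream. The element is shown because it was the single p53 match of the Mdm2 window inside a listed region, with the decamers in capitals (GRCm38, chromosome 10, 117717696 to 117717795, minus strand).
Mdm2 upstream element: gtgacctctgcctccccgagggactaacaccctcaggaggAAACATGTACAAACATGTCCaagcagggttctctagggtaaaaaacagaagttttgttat

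The other 3 matches in the Mdm2 window, all 1 base off the pattern, had no entry in any library. The fourth Mdm2 region, between genes beyond the end of Mdm2, was in the Pbrm1 cKO list alone (difference 0.18, SE 0.17, limma adjusted p = 0.640).

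Cdkn1a, which encodes p21, had the weakest main promoter region of the 10 genes, and its p53 element lay outside open chromatin as listed here. Its first annotated coding start (chr17:29090979) had no entry within 1 kb in any of the 6 libraries. The open start, at 29093769, lay 2793 bp into the gene under the region 29093451-29093872. Ranks there were 14575, 31036 and 29744 in WT and 22596, 32482 and 13967 in Pbrm1 cKO libraries. Each genotype had 1 library at about the same high rank (14575 and 13967) and the others between 22596 and 32482, so that the groups overlapped almost completely. The mean score was 1.49 ± 0.61 in WT and 1.62 ± 0.61 in Pbrm1 cKO (SD, n = 3 each), a difference of 0.13 (SE 0.39, 95% interval −0.68 to 0.94, limma adjusted p = 0.909). Between 25 and 66 tags stood behind these entries. Of the coding promoters 79.5% ranked higher.

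The strongest region of Cdkn1a lay in its intron. The region 29095114-29095737 had ranks of 8629, 9089 and 6906 in WT and 8349, 12792 and 9611 in Pbrm1 cKO libraries, above the start region in 6 of 6 libraries. This region also lies 653 bp from a start of the annotated transcript AC167363.2. Its summits fell 1725 to 1741 bp from the nearest coding start in all 6 libraries. The difference was −0.31 (SE 0.35, limma adjusted p = 0.725). Between them lay 29094317-29095033, which is in the WT list alone, with a difference of −0.25 (SE 0.17, limma adjusted p = 0.521).

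The exact p53 element in front of the first Cdkn1a start was the only exact pair of decamers in the 10 windows. It ran from 29090906 to 29090937 with a spacer of 12 bases, and its centre lay 57 bp before the first coding start and 2847 bp before the open one. An overlapping match with no spacer and 1 base off the pattern began at 29090928. Neither had an entry of a relaxed list over it in any of the 6 libraries, which says that nothing there passed the lists' own threshold, not that the site was closed. The sequence is shown because Cdkn1a is a direct target of p53 and no other window held an exact pair, with the decamers of each match in capitals (GRCm38, chromosome 17, plus strand, 29090866 to 29090975 and 29090888 to 29090975).
Cdkn1a exact element: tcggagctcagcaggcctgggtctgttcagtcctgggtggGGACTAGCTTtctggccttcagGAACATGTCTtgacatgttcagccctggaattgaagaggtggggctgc
Cdkn1a overlapping match: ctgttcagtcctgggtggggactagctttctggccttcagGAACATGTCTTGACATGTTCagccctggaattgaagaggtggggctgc

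Cdkn1b, which encodes p27, had the strongest CDK inhibitor promoter of the group. The region over its start (chr6:134919682-134920771) had ranks of 1845, 3686 and 447 in WT and 2946, 793 and 234 in Pbrm1 cKO libraries. WT library 3 and Pbrm1 cKO libraries 2 and 3 were among the first 1000 ranks, and the groups overlapped. The difference was 0.83 (SE 0.88, 95% interval −1.02 to 2.67, limma adjusted p = 0.698) and fell to −0.077 without Pbrm1 cKO library 3. Its summits lay 45 to 61 bp upstream of the start in all 6 libraries. A region beside Lockd, a long noncoding RNA downstream of Cdkn1b, had ranks from 2969 to 11389 and a difference of 0.39 (SE 0.45, limma adjusted p = 0.724).

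The smallest p of all 34 regions belonged to a weak region upstream of Cdkn1b. This region (chr6:134917243-134917373), 3028 bp from the start and between genes, was in the WT reproducible list alone. Ranks were 52816, 48988 and 44370 in WT and 66086, 65673 and 55126 in Pbrm1 cKO libraries, so every Pbrm1 cKO library stood below every WT library. The tags behind them were 32, 29 and 20 in WT and 17, 19 and 28 in Pbrm1 cKO. The mean score was 0.46 ± 0.13 in WT and 0.10 ± 0.15 in Pbrm1 cKO (SD, n = 3 each), a difference of −0.35 (SE 0.14, limma unadjusted p = 0.0207, adjusted p = 0.227). With normal scores instead of the log2 scale the adjusted p in limma was 0.114, where 0.993% of all regions were called higher and 1.33% lower. In a combination chosen after seeing the data, normal scores without Pbrm1 cKO library 3, it passed the threshold (limma adjusted p = 0.0358), the single setting of those tried in which any of the 34 regions did. The whole region is shown since it had the smallest p, and none of the motifs searched occurred in it (GRCm38, chromosome 6, 134917243 to 134917373, plus strand).
Cdkn1b upstream region: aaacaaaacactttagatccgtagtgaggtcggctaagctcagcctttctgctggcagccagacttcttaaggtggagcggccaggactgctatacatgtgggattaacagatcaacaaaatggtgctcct

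Cdkn2a encodes both p19Arf and p16, from separate starts. Open chromatin was listed at the Arf start (chr4:89294653) and not at the p16 start (89282192), which lies 12461 bp downstream. No merged region lay within 1 kb of the p16 start. Entries within 1 kb of it, none over the start itself, were found in 4 of 6 libraries, and the best of them ranked 63883 among the intervals of its library. By contrast, 2 regions stood at the Arf start.

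The groups did not overlap at 1 of the 10 main promoter regions, against 21.5% of all regions (the promoter share was not computed). This was the region upstream of the Arf start (chr4:89295018-89295726). It ranked 19826, 23048 and 14114 in WT and 11264, 12000 and 10825 in Pbrm1 cKO libraries, higher in every Pbrm1 cKO library than in any WT library. The tags were 40, 30 and 28 in WT and 57, 53 and 55 in Pbrm1 cKO. The mean score was 1.84 ± 0.36 in WT and 2.55 ± 0.075 in Pbrm1 cKO (SD, n = 3 each). The difference of 0.71 (SE 0.33, limma unadjusted p = 0.0462) did not pass after adjustment (limma adjusted p = 0.306), and with 1 library left out it ranged from 0.56 to 0.91. The region over the Arf start (89294290-89294971) moved the same way with more spread, at 21825, 26118 and 12572 in WT and 20848, 7682 and 15724 in Pbrm1 cKO libraries (difference 0.50, SE 0.40, limma adjusted p = 0.582). The central 300 bases of the upstream region are shown, since it had the smallest p of the promoters that ranked higher, with a GC box (CCGCCC, the reverse strand of GGGCGG) in capitals (GRCm38, chromosome 4, 89295222 to 89295521, plus strand).
Cdkn2a upstream region: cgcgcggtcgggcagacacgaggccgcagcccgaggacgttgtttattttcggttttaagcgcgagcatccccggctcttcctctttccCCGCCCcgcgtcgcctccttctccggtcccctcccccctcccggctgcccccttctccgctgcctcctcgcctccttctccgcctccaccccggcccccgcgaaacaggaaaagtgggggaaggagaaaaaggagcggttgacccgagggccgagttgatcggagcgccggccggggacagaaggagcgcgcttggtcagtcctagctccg

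Cdkn2b, the p15 gene next to Cdkn2a, ranked above both Cdkn2a promoter regions in 6 of 6 libraries. Its start region (chr4:89310522-89311256) had ranks of 6818, 13060 and 3518 in WT and 10360, 5879 and 8470 in Pbrm1 cKO libraries. The groups overlapped, with a difference of −0.24 (SE 0.45, 95% interval −1.18 to 0.70, limma adjusted p = 0.847). The region shared by both windows (89302192-89302508), between the genes, was in the WT list alone, with ranks of 32304 to 62280 and a difference of −0.27 (SE 0.26, limma adjusted p = 0.657). A further region in an intron of Cdkn2a (89276118-89276441) was in the Pbrm1 cKO list alone, with a difference of 0.060 (SE 0.15, limma adjusted p = 0.887).

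Ccng1, which encodes cyclin G1, a p53 target, had the strongest promoter of the 10 genes by mean score and was the single gene with 1 region in its window. The region (chr11:40754598-40755540) ranked 1884, 101 and 1917 in WT and 596, 1087 and 2663 in Pbrm1 cKO libraries. WT library 2 alone stood at 101, and the remaining libraries of both genotypes were interleaved. The difference of −0.75 (SE 0.96, 95% interval −2.76 to 1.27, limma adjusted p = 0.758) became 0.66 without WT library 2. This open region held 2 p53 elements 1 base off the pattern, 161 bp upstream of the start and 365 bp inside the gene, and its summits lay between 38 bp upstream and 52 bp downstream. They are shown because Ccng1 was the single main promoter region among the 10 with a match of that kind (GRCm38, chromosome 11, minus strand, 40755422 to 40755521 and 40754896 to 40754995).
Ccng1 upstream element: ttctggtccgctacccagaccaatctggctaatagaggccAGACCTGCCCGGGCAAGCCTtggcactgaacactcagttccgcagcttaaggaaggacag
Ccng1 intron element: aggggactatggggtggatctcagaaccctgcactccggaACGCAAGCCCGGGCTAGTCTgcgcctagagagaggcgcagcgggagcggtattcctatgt

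Gadd45a, a stress gene that acts in growth arrest and repair, showed the smallest difference of the 10 promoters. Its region (chr6:67036462-67037698) also covered the start of the antisense RNA E230016M11Rik. This region ranked 4137, 7578 and 3102 in WT and 3952, 4535 and 5294 in Pbrm1 cKO libraries. The difference was 0.012 (SE 0.43, 95% interval −0.89 to 0.91, limma adjusted p = 0.993). The strongest summit stood near the start in WT libraries 1 and 3 and Pbrm1 cKO libraries 1 and 3, and 642 and 649 bp inside the gene in WT library 2 and Pbrm1 cKO library 2. An intron region of the antisense RNA E230016M11Rik (67041019-67041236) was in the Pbrm1 cKO list alone. It ranked 64307, 51383 and 57595 in WT and 50438, 49434 and 50708 in Pbrm1 cKO libraries, without overlap, and the difference of 0.20 (SE 0.14, limma adjusted p = 0.537) did not pass.

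Bax, which encodes a pore-forming protein of apoptosis, had a weak promoter, with 74.6% of coding promoters ranked higher, in a crowded window with 7 regions. The region over its start (chr7:45466345-45467219) ranked 19170, 24724 and 14705 in WT and 22368, 18236 and 13786 in Pbrm1 cKO libraries. The difference was 0.10 (SE 0.34, 95% interval −0.61 to 0.82, limma adjusted p = 0.919). A weak region over a Dhdh exon, 4085 bp upstream of Bax (45470983-45471157), ranked 46844, 51104 and 54742 in WT and 40406, 38050 and 38491 in Pbrm1 cKO libraries. These groups did not overlap (difference 0.38, SE 0.21, limma unadjusted p = 0.0824, adjusted p = 0.382). At the start of Ftl1, the ferritin light chain gene downstream, a WT-only region (45459375-45459554) ranked 42010, 48818 and 34785 in WT and 59104, 64188 and 45712 in Pbrm1 cKO libraries (difference −0.43, SE 0.20, limma unadjusted p = 0.0474, adjusted p = 0.308). The neighbouring Ftl1 regions differed by 0.081 (SE 0.41, limma adjusted p = 0.951) and −0.52 (SE 0.36, limma adjusted p = 0.502). The last Bax window region, over another Dhdh exon, was in the Pbrm1 cKO list alone (difference 0.15, SE 0.15, limma adjusted p = 0.668).

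Sesn2, which encodes a sestrin that restrains mTORC1 under stress, had a strong promoter and a distal region of like rank. The promoter region (chr4:132509629-132510883) also covered the start of the annotated gene Gm12981. This region ranked 2645, 5864 and 6307 in WT and 4911, 2573 and 5718 in Pbrm1 cKO libraries. The difference was 0.15 (SE 0.46, 95% interval −0.83 to 1.12, limma adjusted p = 0.916). The distal region, 4908 bp upstream (132515409-132516027), ranked 3831, 5259 and 5604 in WT and 4009, 14042 and 7508 in Pbrm1 cKO libraries, and it stood above the promoter in 3 of 6 libraries. Its difference was −0.63 (SE 0.45, limma adjusted p = 0.518).

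**Figure D2:**
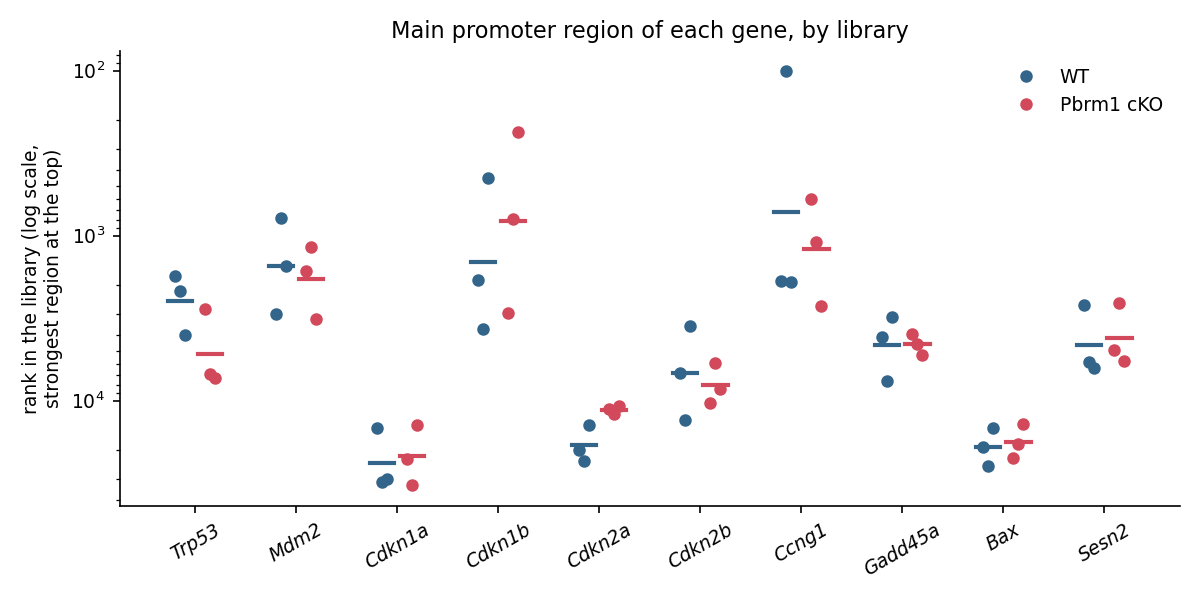
Rank of the main promoter region of each gene in each library (points; log axis with the strongest at the top), WT in blue and Pbrm1 cKO in red, with bars at the geometric mean of 3 libraries. Ccng1, Cdkn1b and Mdm2 stand highest and Cdkn1a, Bax and Cdkn2a lowest. Only at Cdkn2a do the points of the genotypes not overlap (1 of 10 genes, against 21.5% of all regions, promoters or not). The Trp53 points are those of the region at the Wrap53 start.

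By mean rank score over the 6 libraries the order of the main promoter regions was Ccng1 (6.17 ± 1.74), Cdkn1b (5.94 ± 1.58), Mdm2 (5.32 ± 0.78), Trp53 (4.22 ± 0.86), Sesn2 (3.93 ± 0.59), Gadd45a (3.86 ± 0.44), Cdkn2b (3.18 ± 0.67), Cdkn2a (2.20 ± 0.46), Bax (1.86 ± 0.33) and Cdkn1a (1.55 ± 0.55; SD, n = 6). The ranges of all 9 neighbouring pairs overlapped. The order of neighbours was the same in 6 of 6 libraries for Gadd45a above Cdkn2b and for Cdkn2b above Cdkn2a, and in 2 to 5 libraries for the other pairs. The Trp53 value in this order is that of the region at the Wrap53 start, whereas the region over the Trp53 start had mean scores of 1.64 in WT and 1.81 in Pbrm1 cKO. Across genes, Eif1ad and Banf1 (which share 1 region) and Lsm2 had promoter ranks most like those of the Trp53 region at Wrap53, each at a Euclidean distance of 0.89 in rank score over 6 libraries. Abhd6 (0.42), Rab11fip3 (0.49) and Lpar4 (0.64) were nearest to Cdkn1a among 13742 genes.

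**Figure D3:**
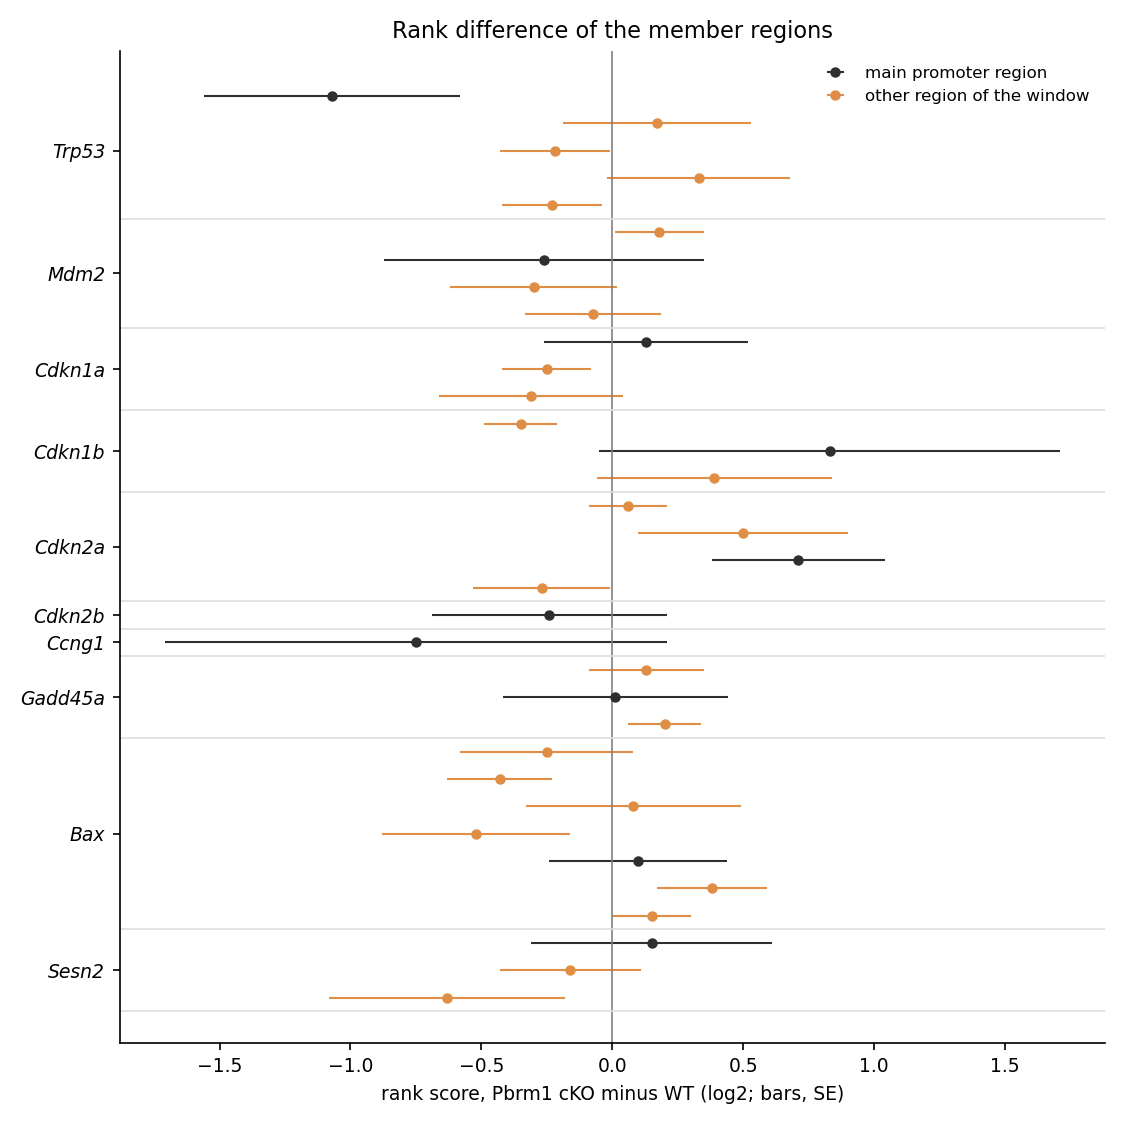
Difference in rank score, Pbrm1 cKO minus WT (log2), for each of the 34 regions by gene, with bars of 1 SE; main promoter regions are black and other regions orange, and the region shared by the Cdkn2a and Cdkn2b windows is drawn under Cdkn2a. Differences run from −1.07 at the Trp53 window to 0.83 at the Cdkn1b promoter, on both sides of 0 within most windows.

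In the reproducible lists, of which there was 1 per genotype and hence no test, 24 regions (70.6%) were in both, 5 in the WT list alone and 5 in the Pbrm1 cKO list alone. The share in both was 69.2% over all merged regions. The WT-only regions were those at Trp53, Cdkn1a, Cdkn1b, Ftl1 and between Cdkn2a and Cdkn2b, and all 5 ranked lower in Pbrm1 cKO on average. The Pbrm1 cKO-only regions were those at Mdm2, Cdkn2a, Gadd45a, Dhdh and Atp1b2, of which 4 ranked higher and the Atp1b2 one lower. List membership and rank come from the same reads, so this is no independent support.

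The length covered by relaxed-list entries, a measure that does not use the merged regions, did not separate the genotypes either. The relaxed lists held 241237 distinct intervals in WT library 3 and 201228 to 209436 in the other libraries. The part of this in the covered length was not tested. The 10 windows merged to 9 intervals of 298 kb in total, and entries covered 20696, 19487 and 18065 bp of them in WT libraries 1, 2 and 3 and 19209, 19870 and 20677 bp in Pbrm1 cKO libraries. The mean was 19416 ± 1320 bp in WT and 19919 ± 735 bp in Pbrm1 cKO (SD, n = 3 each), a difference of 502.7 bp (exact permutation test, two-sided, p = 0.7, where 0.1 is the smallest p that 3 against 3 libraries allow). Among single windows, Bax alone had groups that did not overlap, at 2840, 2791 and 2474 bp in WT and 3105, 3211 and 2941 bp in Pbrm1 cKO (exact permutation p = 0.1, adjusted p = 1 over 10 genes). The window at Trp53 differed least, by 0.667 bp between means of 2001 and 2002 bp (exact permutation p = 1).

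**Figure D4:**
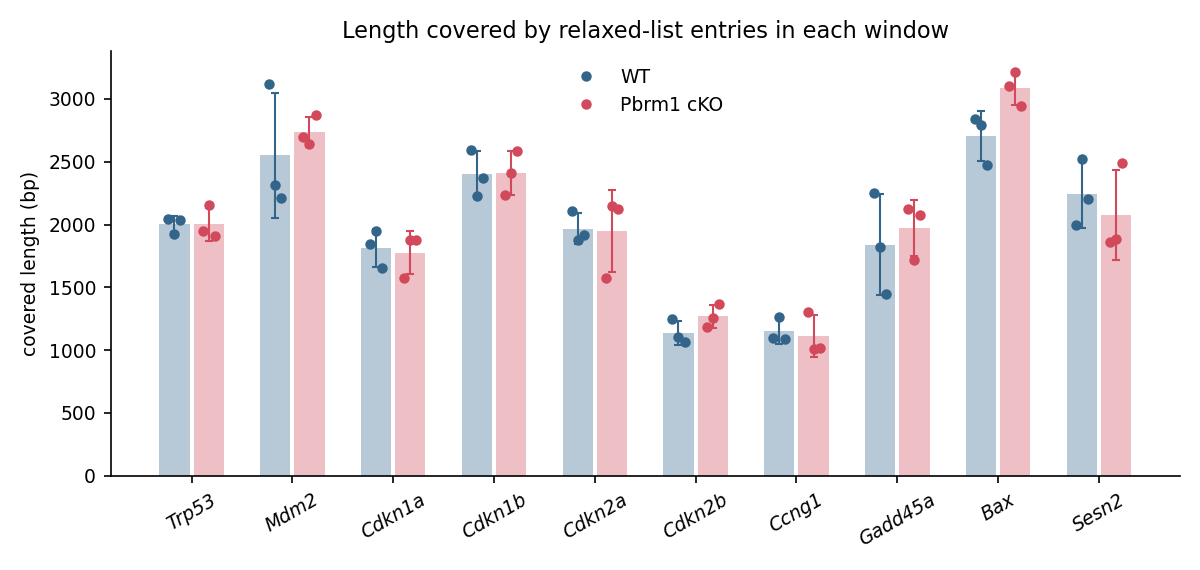
Length in bp covered by relaxed-list entries in the window of each gene, as points per library, bars at the mean of 3 libraries and error bars of 1 SD, WT in blue and Pbrm1 cKO in red. At Bax all Pbrm1 cKO points lie above the WT points, and elsewhere they overlap.

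Outside the merged regions, the windows held 71 weaker intervals, of which 34 were listed in 1 library and 4 in all 6. An interval inside Mdm2 (chr10:117709453-117709542) was listed in all 3 WT and no Pbrm1 cKO library, at folds of 2.99, 2.85 and 2.54 over background. One at Gadd45a (chr6:67041300-67041429), beside the Pbrm1 cKO-only region above, was listed in all 3 Pbrm1 cKO and no WT library, at folds of 2.40, 2.58 and 2.50. Their best rank among the intervals of a library was 104477 and 117839, so both were weak entries, and no test was made. How common such intervals are over the whole lists was not computed, so they are given as a description only.

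Motif matches were counted in the central 300 bp of each main promoter region, on both strands. The GC box GGGCGG occurred at 7 of 10 (Mdm2, Cdkn1a, Cdkn1b, Cdkn2a, Cdkn2b, Gadd45a and Bax), against 53.3% of the 18860 coding promoter regions. These 18860 are all regions within 1 kb of a start of a coding gene, not only the main one of each gene. The shares of coding promoter regions given here thus come from an unlike set. CCAAT occurred at Cdkn1b and Sesn2, against 28.8%, and the AP-1 motif TGANTCA at 0 of 10, against 10.7% of coding promoter regions and 33.5% of all merged regions. The p53 element was searched as a pair of decamers with a spacer of 0 to 13 bases. An exact one occurred at 0 of 10 there, against 0.0212%, and over whole regions at 0 of 34, against 0.141% of all merged regions. With 1 base off the pattern and no spacer, elements lay in 2 of the 34 regions, those of Ccng1 and Mdm2 shown above, against 0.214%. The Cdkn2b window held 1 such match, inside the gene, with no entry in any library. A match is a description of the reference sequence and not of binding.

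The wider pathway gave the same picture, with 0 of 52 promoters past the threshold in either direction, where 0.0363% of all coding promoters were called higher and 0.00726% lower. The list held 55 genes, of which Trp63, Trp73 and Sfn had no promoter region. By direction, 23 ranked higher and 29 lower in Pbrm1 cKO, with a median difference of −0.077, against −0.024 over all coding promoters. An unadjusted p under 0.05 was found at 3 of 52 (5.77%), against 9.03% of coding promoters and 15.9% of all regions. The groups did not overlap at 6 of 52. Over all regions, promoters or not, the share was 21.5%, and the share over coding promoters alone was not computed.

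Sesn1, a sestrin like Sesn2, had the largest difference. It ranked 3080, 1351 and 397 in WT and 3614, 4578 and 4677 in Pbrm1 cKO libraries, without overlap (difference −1.85, SE 0.62, limma unadjusted p = 0.00785, adjusted p = 0.162). By p, the next lower promoters were Cdk6, a G1 kinase (−0.75, SE 0.40, limma adjusted p = 0.375), Pmaip1, which encodes the death protein Noxa (−0.57, SE 0.32, 0.400), and Chek2, a checkpoint kinase (−0.84, SE 0.62, 0.544).

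Of the promoters that ranked higher, Cdkn1c, the p57 inhibitor, had the smallest p. It ranked 49030, 44522 and 31832 in WT and 22592, 28928 and 24032 in Pbrm1 cKO libraries, without overlap (difference 0.72, SE 0.31, limma unadjusted p = 0.0312, adjusted p = 0.265). Ppm1d, which encodes the phosphatase Wip1 that damps p53 signalling, ranked 8508, 6385 and 5958 in WT and 5112, 2742 and 3463 in Pbrm1 cKO libraries, again without overlap (difference 0.91, SE 0.41, limma unadjusted p = 0.0370, adjusted p = 0.284). Ccne2, a cyclin of S-phase entry (1.01, SE 0.49, limma adjusted p = 0.318), and Hipk2, a kinase of p53 (0.60, SE 0.38, 0.465), followed by p. Group medians were −0.28 for 4 checkpoint kinases, 0.60 for 7 regulators of p53, −0.16 for 14 arrest and repair targets, −0.033 for 11 death targets, −0.073 for 6 other CDK inhibitors and pocket proteins and 0.025 for 10 cyclins, kinases and E2F genes. Of the arrest and repair targets 11 of 14 ranked lower and 1 had an unadjusted p under 0.05. Over all coding promoters 52.0% ranked lower and 9.03% had such a p. Of the 7 regulators of p53, 5 ranked higher and 2 lower. The other groups were near even (2 higher and 2 lower, 5 and 6, 3 and 3, and 5 and 5, in the order above).

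**Figure D5:**
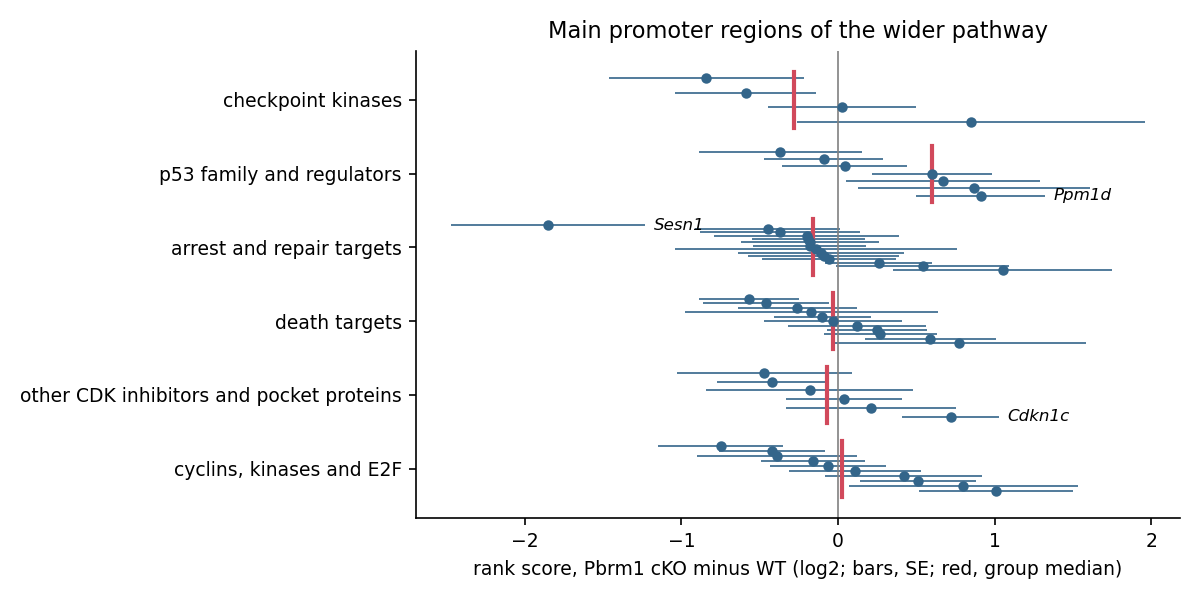
Difference in rank score, Pbrm1 cKO minus WT (log2), at the main promoter region of the 52 wider pathway genes by group, with bars of 1 SE and a red line at each group median. The named genes are those with an unadjusted p under 0.05, Sesn1 at −1.85, Cdkn1c at 0.72 and Ppm1d at 0.91, and none passed the adjusted threshold.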

How the data were processed

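ATAC-seq peak lists of 6 libraries were used, 3 WT and 3 Pbrm1 cKO, grouped by the sample labels. The authors aligned reads to GRCm38 with Bowtie2 after cutadapt and called peaks with MACS2 (versions not given in the labels). They deposited a relaxed list per library, limited to 300000 entries (Pbrm1 cKO library 3 had 298563), and 1 conservative IDR list per genotype. Columns deposited by the authors were a rescaled score, the fold enrichment of the summit over background (a ratio), and −log10 p and −log10 q. The lists held no read counts, so the read-count test in the study's methods could not be run and total depth is unknown.

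The IDR lists were merged into 66679 regions (overlap of at least 1 bp), and each was ranked per library by best −log10 p. A linear model of log2(regions / rank) on genotype was made with lmFit and moderated with eBayes under a mean-variance trend (limma 3.58.1, R 4.3.3), with Benjamini-Hochberg adjustment over all regions and a threshold of 0.05. It was tested on simulated data. The main promoter region was the one within 1 kb of a start with the highest mean score. Covered length was compared by exact permutation tests. Numbers of tags were solved from fold and p as the nearest whole number. Over all 204 entries of the 34 regions, the implied p differed from the listed one by at most 3.1e-05 in −log10. Motifs were read from the reference genome (GRCm38.p6).

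Members and lists were chosen with earlier results of these data known. Named regions were all main promoters, the 10 with the smallest p and those in 1 IDR list. Regions named outside this rule, after their values were seen, were those over the Trp53 start and in its intron, the side-by-side regions upstream of Mdm2, the strongest Cdkn1a region, the Lockd region and the Ftl1 region with a difference of 0.081. From the wider list the 4 higher and 4 lower genes with the smallest p were named, and for likeness the 3 nearest genes. Alternatives were normal scores, ranks by fold, subsets of regions, each library left out, smaller windows, best-ranked intervals and a replicate block. Normal scores with each library left out and the p53 search allowing 1 base off the pattern, and the alternatives at the region over the Trp53 start, were added after seeing the data.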

Additional observations from a re-analysis of the deposited data

How the results depend on the processing

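No call at these genes depended on a setting in the alternatives planned, under which 0 of the 34 regions and 0 of the 52 wider pathway promoters passed in either direction. In the fits added after seeing the data, 1 region, upstream of Cdkn1b, was called lower with normal scores without Pbrm1 cKO library 3. Over all regions, 26 higher and 19 lower calls became 662 and 890 with normal scores and 4 and 0 with ranks by fold. They became 40 and 24 in the upper part of the list, and 21 and 10 among regions with an entry in all 6 libraries. With 1 library left out they were 2 to 5 higher and 0 to 15 lower. The median difference of the 34 regions ranged from −0.11 (ranks by fold) to 0.046 (upper part of the list by mean score, which holds 20 of the 34 by construction). With 1 library left out, the promoter difference ranged from −0.75 to 0.22 at Mdm2, from −0.19 to 0.48 at Cdkn1a, from −0.077 to 1.75 at Cdkn1b, from −0.71 to 0.23 at Cdkn2b, from −1.46 to 0.66 at Ccng1, from −0.35 to 0.30 at Gadd45a, from −0.083 to 0.29 at Bax and from −0.20 to 0.55 at Sesn2. Ranks by fold turned Gadd45a (−0.48), Bax (−0.17) and Sesn2 (−0.11). At Cdkn2a and at the Wrap53-start region taken as the Trp53 promoter, the direction was the same in all 11 alternatives run for them. The replicate block and the subsets of regions kept the same scores and so could not change these differences. Only normal scores, ranks by fold and each library left out could change the direction. The difference at the region over the Trp53 start itself (0.17) ranged from −0.078 to 0.56 with 1 library left out and was −0.13 with ranks by fold. The difference in covered length was −172.8 to 1143 bp with 1 library left out, negative without WT library 3, and −50.67 bp with the gene body plus 2 kb. The 5 regions of the WT list alone fell to 2, and the 5 of the Pbrm1 cKO list alone to 1, in the stronger part of each list, and both fell to 2 with the smaller windows. Of the 34 regions, 20 were among the 50000 best intervals of all 6 libraries, and 21 lay in the smaller windows. Deviations from the group means were almost uncorrelated between same-numbered libraries (correlations of −0.00289, −0.0549 and 0.00906). With 3 libraries per genotype this cannot settle whether those libraries were handled together. A fit with the replicate block called 66 higher and 65 lower over all regions, 0 of them among the 34, with a covered-length permutation p of 0.75. The causes were not tested. Tags of 5 to 164 per summit and 3 libraries per genotype limit what could be detected, and intervals of the promoter differences reach beyond 1 in at least 1 direction at 7 of the 10 genes.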
